A study of Mus musculus with 63 samples.

Results

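Endothelial cells (ECs) of the mouse kidney were compared after 7 days of unilateral ureteric obstruction (UUO-7) and after a sham operation, by small RNA sequencing of cells sorted from the renal cortex. The members were all libraries of sorted ECs from these 2 groups, which the count table marks by cell type and condition: 4 sham and 4 UUO-7 libraries, 8 of the 63 libraries of the series. All 2110 miRNA loci of the table entered, where a locus is the genomic position of 1 mature miRNA, and 469 had enough reads in ECs to be tested. The mice were young adult wild-type C57BL/6 males, every mouse had an operation, and each library came from 1 mouse. The obstructed mice had 1 ureter closed for 7 days and the sham mice had the operation without obstruction. ECs were sorted from digested cortex as CD45-negative, CD31-positive cells, so that each library mixes ECs of all cortical vessels, and the study had selected for sequencing the 4 mice of each group nearest to the group's mean expression of the tubular injury gene Havcr1. Libraries of ECs after 2 days of obstruction (UUO-2) and after reversal of a 7-day obstruction (R-UUO), and libraries of F4/80-high macrophages (Macs), LTL-positive proximal tubule (PT) cells and PDGFR-β+ cells, are used below only for the comparisons that need them.

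A mature miRNA is a short RNA that is cut from a hairpin precursor and guides a silencing complex to messenger RNAs. It pairs mostly through its seed, bases 2 to 8 from the 5′ end, so that miRNAs with 1 seed can share targets, and either arm of the hairpin (5p or 3p) can be kept. ECs line the vessels, hold the barrier to plasma and, when activated, display the adhesion molecules that recruit leukocytes. In the obstructed kidney, peritubular capillaries are lost while the interstitium scars. Several miRNAs are known for roles in ECs: miR-126, carried in Egfl7, tunes VEGF signalling, miR-10a, miR-146a, miR-155 and miR-181b act on inflammatory signalling, and miR-21 is raised in many injured tissues.

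The following mature sequences are those of the miRNAs on which the results turn, because shared or distinct seeds decide which members count as 1 family. They are RefSeq sequences on GRCm38.p6, written 5′ to 3′ with the seed in capitals. The first 8 were higher at UUO-7 and belong to a list of miRNAs known from inflammatory signalling.
miR-21a-5p: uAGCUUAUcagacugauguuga
miR-21a-3p: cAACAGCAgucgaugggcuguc
miR-155-5p: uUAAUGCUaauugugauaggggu
miR-146a-5p: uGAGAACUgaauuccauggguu
miR-146b-5p: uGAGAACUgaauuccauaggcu
miR-181b-5p: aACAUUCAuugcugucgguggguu
miR-31-5p: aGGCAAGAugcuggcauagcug
miR-132-3p: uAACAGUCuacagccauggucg
The next 6 were also higher, and are shown as markers of blood cells, as members of a sensory and epithelial cluster, and as members of a cluster on chromosome X.
miR-142a-5p: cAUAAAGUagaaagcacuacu
miR-223-3p: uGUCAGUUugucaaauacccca
miR-182-5p: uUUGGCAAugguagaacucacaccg
miR-183-5p: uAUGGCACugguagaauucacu
miR-351-5p: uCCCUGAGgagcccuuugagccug
miR-322-5p: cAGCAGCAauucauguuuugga
The last 7 were lower, and are shown because they carry the falls outside and inside the imprinted Dlk1-Dio3 region.
miR-204-5p: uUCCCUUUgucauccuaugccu
miR-204-3p: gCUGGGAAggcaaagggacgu
miR-29c-3p: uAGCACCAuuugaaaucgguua
miR-30c-5p: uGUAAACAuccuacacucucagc
miR-199b-3p: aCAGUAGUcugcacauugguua
miR-434-3p: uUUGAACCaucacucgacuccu
miR-433-3p: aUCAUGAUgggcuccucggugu
miR-146a-5p and miR-146b-5p have the same seed, whereas miR-182-5p and miR-183-5p, cut from neighbouring hairpins, do not.

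The EC libraries were checked against 2 endothelial miRNAs. In sham ECs miR-126a-5p stood at 125500 CPM (counts scaled to 1000000 per library, here on a scale common to all 63 libraries), against 1358 in Macs, 1867 in PDGFR-β+ cells and 583 in PT cells. The endothelial miR-139-5p stood at 543 CPM in sham ECs and at no more than 7.16 in the other 3 types. At UUO-7 ECs held 130000 CPM of miR-126a-5p and 743 of miR-139-5p, and the other types at most 809.8 and 30.5. Both loci of miR-126a overlap miR-126b loci on the other strand and carry nearly the same counts, and were named only for this check. The totals ranged from 7395011 to 10819385 counts in the sham libraries and from 4813388 to 9684164 in the UUO-7 libraries. A locus with 3 counts in a library therefore stood at 0.272 to 0.583 CPM, and the 10 most abundant loci took 72.1 to 76.3% of each of these 8 libraries. From here on, CPM values are scaled over the 16 EC libraries unless stated otherwise, and values of single libraries follow the replicate numbers (sham 1 to 4, UUO-2 1 to 4, UUO-7 2 to 5, R-UUO 1, 2, 4 and 5).

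In ECs at UUO-7, 29 loci were higher and 25 were lower than in sham, or 54 of 469 tested (11.5% called, 6.18% higher and 5.33% lower). A locus was called at a fold change above 1.5 and an adjusted p below 0.05 (edgeR's quasi-likelihood test, Benjamini-Hochberg adjustment). The called loci hold 51 distinct sets of counts, since 3 pairs that overlap on opposite strands carried identical values and cannot be told apart. In 116 tested loci (24.7%) all 4 UUO-7 libraries lay beyond all 4 sham libraries, 52 higher (11.1%) and 64 lower (13.6%), and 50 of the 54 called loci were among them. The 4 called loci whose groups overlapped were miR-5108, miR-6944-3p, miR-184-3p and miR-676-3p. The median log2 fold change of all tested loci was -0.05. Of the called loci with a mean below 10 CPM over the 8 libraries, 9 were higher and 14 lower, and of those at 1000 CPM or more 5 were higher and 3 lower.

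**Figure D1:**
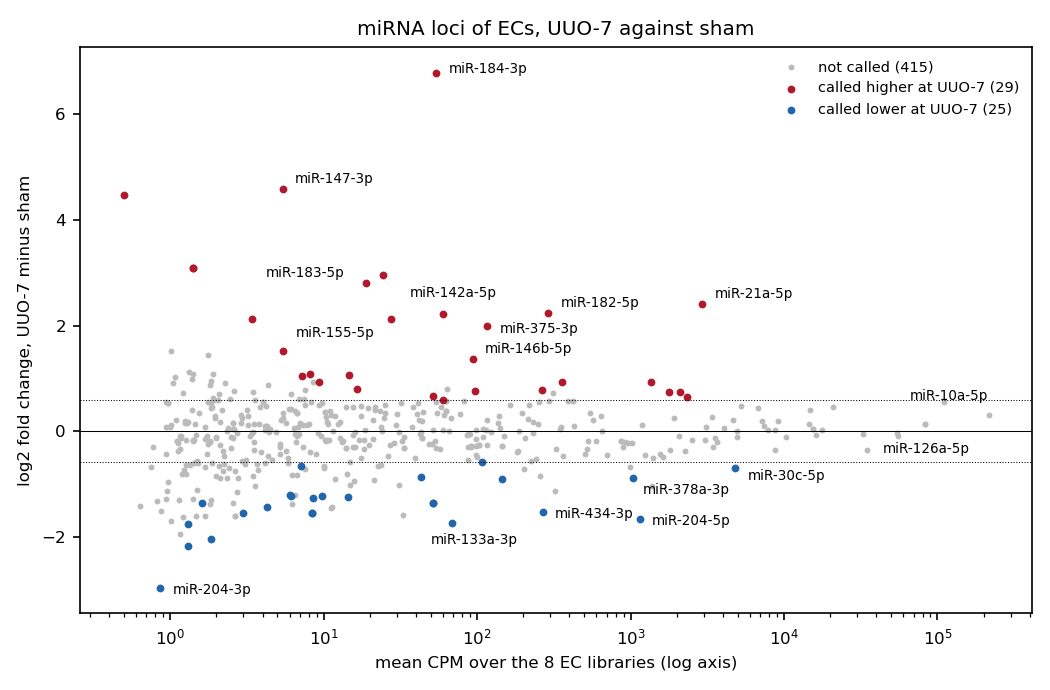
Each point is 1 of the 469 miRNA loci tested in ECs. The x axis is its mean CPM over the 8 EC libraries (log axis) and the y axis its log2 fold change, UUO-7 minus sham, with dotted lines at a fold change of 1.5. The 29 red loci were called higher and the 25 blue loci lower, and miR-21a-5p stands out among the abundant loci.

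The number of lower calls rested on the libraries more than the number of higher calls did. With 1 of the 8 libraries left out, 24 to 42 loci were called higher. The lower calls numbered 10, 7, 11 and 7 without sham replicates 1 to 4, and 8, 12, 18 and 12 without UUO-7 replicates 2 to 5, so that every library but UUO-7 replicate 4 moved this count by more than 1.5 times. When libraries were scaled by their totals alone, the calls split into 22 higher and 38 lower, with a median change of all loci of -0.21. When loci with identical counts were counted once, they split into 45 higher and 16 lower. In a bulk library, fewer cells of a type and less RNA per cell cannot be told apart.

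Most miRNAs known from inflammatory signalling rose. Of 16 tested loci of this list, 11 were called higher and 0 lower, and the other 5 had positive log2 fold changes. These loci are not independent. They include both arms of the miR-21a, miR-155, miR-132 and miR-212 hairpins, and copies of miR-181a-5p and miR-181b-5p that share a mature sequence. The list was also chosen with earlier results of these data known, so that its counts are descriptive. Over all 469 tested loci, 6.18% were called higher. DESeq2 called 12 higher and 0 lower, and at an unadjusted p below 0.05 there were 15 and 0. The median over the 16 loci was 0.94, against -0.05 over all tested loci. In 13 of the 16 UUO-7 was higher without overlap between the groups (11.1% over all tested loci). Over all alternative settings 9 to 13 loci of the list were called higher and 0 lower.

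miR-21a-5p, which lies in an exon of Vmp1 at chr11:86584120-86584141 (GRCm38), was the most abundant locus with a large rise. It stood at 920.1, 856, 1065 and 879 CPM in the sham libraries and at 4159, 4567, 5466 and 5524 CPM in the UUO-7 libraries. Each UUO-7 library held more than 3 times the level of any sham library. The means were 930.1 ± 93.7 and 4929 ± 675 CPM (SD, n = 4), with a log2 fold change of 2.41 ± 0.19 (SE) and an adjusted p of 2.95e-07 (edgeR). The other arm of the hairpin, miR-21a-3p, rose from 5.61 ± 0.602 to 43.4 ± 10.9 CPM (SD, n = 4, log2 fold change 2.95). Relative to Macs, which hold much miR-21a-5p, the level in ECs went from 4.57% of the Mac mean in sham to 17.7% at UUO-7.

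miR-155-5p, made from the exon of the non-coding gene Mir155hg at chr16:84714143-84714165 and known in activated immune cells and ECs, stood at 13.7, 9.99, 9.34 and 8.04 CPM in sham and at 58.2, 64.0, 32.0 and 26.3 CPM at UUO-7. The groups were apart, but the UUO-7 libraries spread over more than a factor of 2, with replicates 2 and 3 high and replicates 4 and 5 low. Its log2 fold change was 2.13 ± 0.34 (SE, adjusted p = 0.000338 by edgeR). The passenger arm miR-155-3p had 1 read in the 4 sham libraries together and 24 at UUO-7, a ratio of 31.0 (exact 95% interval 5.05 to 1270.0, counting error only), and its call was lost when any sham library or UUO-7 replicate 2 was left out.

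miR-147-3p, a miRNA known to be induced by Toll-like receptor signals and placed in an exon of AA467197, was near 0 in sham ECs. Its levels were 0.518, 0.388, 0.726 and 0 CPM in sham and 7.83, 8.55, 11.8 and 13.5 CPM at UUO-7. No UUO-7 library came near the sham range (log2 fold change 4.57 ± 0.67 SE, adjusted p = 0.000192 by edgeR). At UUO-7 ECs held 123% of the Mac mean, against 20.0% in sham.

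The miR-146 pair, which limits signalling to NF-κB through TRAF6 and IRAK1, rose by unequal amounts. miR-146b-5p, in an intron of Mfsd13a at chr19:46342790-46342811, stood at 55.1, 46.1, 57.4 and 50.7 CPM in sham and 134, 129.9, 120.4 and 156 CPM at UUO-7 (log2 fold change 1.37 ± 0.21 SE, adjusted p = 0.000244 by edgeR). The UUO-7 values were tightly grouped and lay above all sham values. The more abundant miR-146a-5p stood at 1613, 1868, 1929.8 and 1833 CPM in sham and 2916, 2291, 2829 and 3272 CPM at UUO-7 (log2 fold change 0.64 ± 0.15 SE, adjusted p = 0.00941 by edgeR). Its groups did not overlap either, but its call was lost with library totals as the scale.

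miR-181b-5p, known in ECs as a brake on NF-κB import, is cut from hairpins on chromosomes 1 and 2 with the same mature sequence, so that the split of its reads between them is uncertain. At chr2:38853845-38853868 it stood at 908, 974, 904 and 941 CPM in sham and 2157, 1853, 1514 and 1571 CPM at UUO-7. The sham values were nearly equal and all UUO-7 values were above them (log2 fold change 0.93 ± 0.14 SE, adjusted p = 0.000198 by edgeR). The copy on chromosome 1 gave a log2 fold change of 0.93. Of the 6 tested loci with this seed, these were the called ones: miR-181a-5p had log2 fold changes of 0.45 and 0.45, below the fold threshold, and miR-181c-5p had -0.20.

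2 further loci of the list were called. miR-31-5p, which is known to target E-selectin, had a mean of 2.78 ± 1.39 CPM in sham and 8.03 ± 1.73 CPM at UUO-7 (SD, n = 4, log2 fold change 1.52). miR-132-3p, known in angiogenic ECs, went from 39.9 ± 3.53 to 63.3 ± 14.4 CPM (SD, n = 4, log2 fold change 0.67). Its call was lost without UUO-7 replicate 3 and with library totals as the scale. The uncalled miR-212-3p, which has the same seed as miR-132-3p, had a log2 fold change of 0.94 and an adjusted p of 0.0501 (edgeR).

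**Figure D2:**
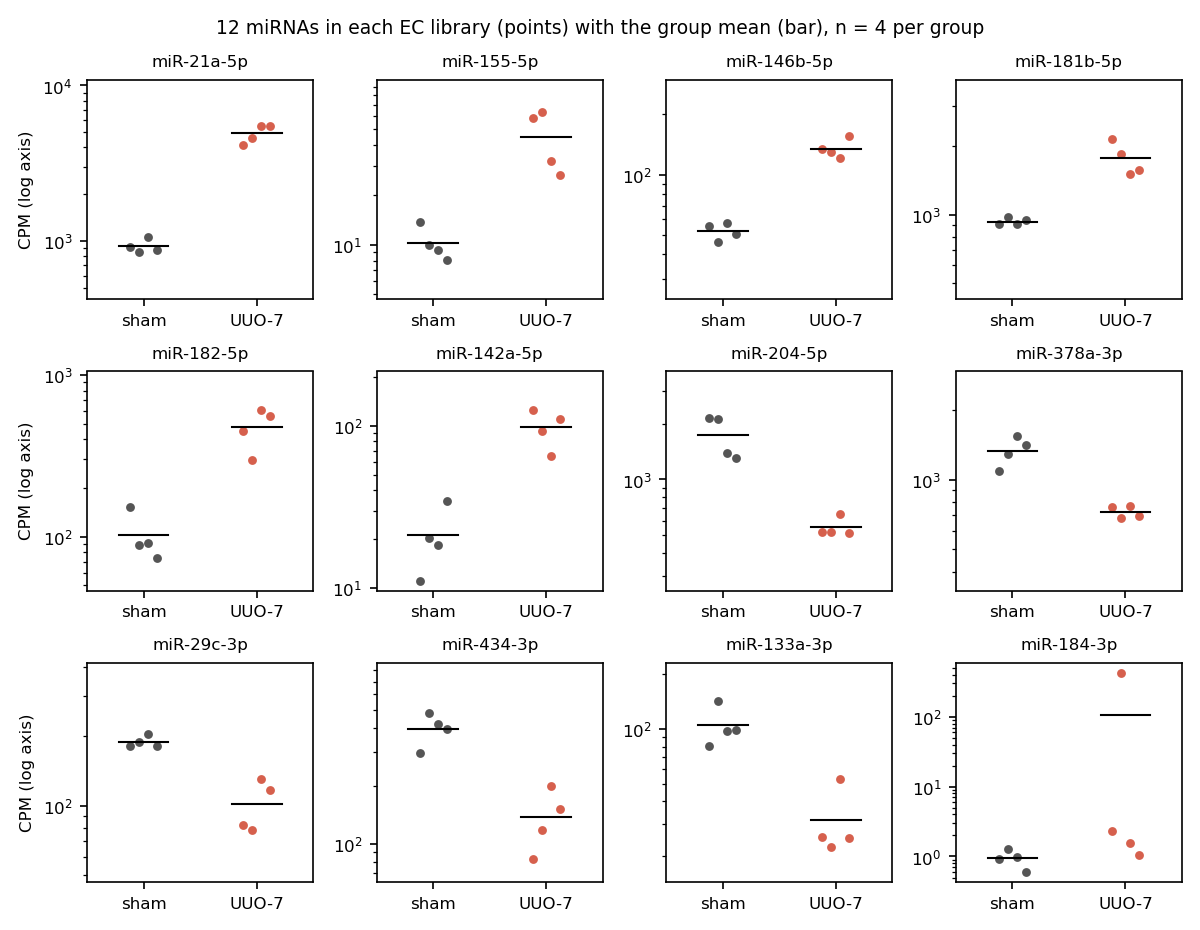
Each panel shows the CPM of 1 miRNA (log axis) in the 4 sham and the 4 UUO-7 EC libraries as points, with the group mean as a bar; miR-181b-5p is the chromosome 2 locus. In 11 panels the groups are apart, whereas the mean of miR-184-3p at UUO-7 is set by 1 library at 422.9 CPM.

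Most tested markers of blood cells rose as well. Of the 9 loci of the leukocyte list 6 were tested, and 4 were called higher and 0 lower by edgeR and by DESeq2 (5 and 0 at an unadjusted p below 0.05), with a median log2 fold change of 2.12. Over all 469 tested loci, 6.18% were called higher. The called loci are not independent of each other or of the inflammatory list. Both arms of the miR-142a hairpin are among them, and miR-155-5p is in both lists. The log2 fold change was positive in 5 of the 6 and negative in miR-150-5p, at -0.34. miR-142a-5p, a marker of all blood cells, stood at 11.1, 20.5, 18.5 and 34.4 CPM in sham and 124.9, 92.9, 64.7 and 110.0 CPM at UUO-7. All UUO-7 libraries were above all sham libraries (log2 fold change 2.22 ± 0.31 SE, adjusted p = 0.000119 by edgeR). The myeloid miR-223-3p went from 1.298 ± 0.756 to 5.58 ± 1.06 CPM (SD, n = 4, log2 fold change 2.12). The others called were miR-155-5p and miR-142a-3p, whose counts equal those of miR-142b on the other strand (log2 fold change 3.10) and were 0 in sham replicate 2.

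The size of this signal can be set beside the Mac libraries. As a share of the Mac mean, ECs held 0.0926% of miR-142a-5p in sham and 0.844% at UUO-7, and 0.0993% and 0.663% of miR-223-3p. The EC share rose in 7 of the 9 loci of the list. The EC shares of miR-21a-5p, miR-155-5p, miR-146a-5p and miR-146b-5p were 4.57%, 20.1%, 5.80% and 4.18% of the Mac means in sham and 17.7%, 36.8%, 21.4% and 3.30% at UUO-7. All were larger than the share of miR-142a-5p in both conditions, and that of miR-146b-5p was smaller at UUO-7 than in sham. The Mac means moved too. From sham to UUO-7, Macs fell from 36490 to 17350 CPM of miR-142a-5p, 2095 to 1267 of miR-223-3p and 50140 to 19880 of miR-146a-5p. They rose from 32750 to 41960 CPM of miR-21a-5p, 82.3 to 180 of miR-155-5p and 2014 to 6133 of miR-146b-5p. ECs went from 2907 to 4249 CPM of miR-146a-5p and from 84.3 to 202 of miR-146b-5p on this 63-library scale. The summed leukocyte list was 1867 to 2266 CPM in sham and 1403 to 2145 CPM at UUO-7, most of it miR-150-5p, a lymphocyte miRNA that stood at 3244 CPM in sham ECs and 129 in sham Macs on the 63-library scale. At UUO-7 miR-150-5p stood at 2358 CPM in ECs and 595 in Macs. Without miR-150-5p the sum was 70.4 to 100.8 CPM in sham and 150.6 to 268.3 CPM at UUO-7. The part of blood cells in the rises of the inflammatory list was not tested.

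2 of the 3 tested loci of the cluster of miR-183, miR-96 and miR-182, known from sensory organs and epithelia, were called higher. Over all 469 tested loci the share was 6.18%. miR-182-5p at chr6:30165962-30165986 stood at 153, 88.5, 91.98 and 74.0 CPM in sham and 449.9, 297, 605 and 555 CPM at UUO-7. The lowest UUO-7 library held nearly 2 times the level of the highest sham library (log2 fold change 2.23 ± 0.24 SE, adjusted p = 9.87e-06 by edgeR). miR-183-5p rose from 4.70 ± 2.28 to 32.9 ± 8.24 CPM (SD, n = 4, log2 fold change 2.81). The rarer miR-96-5p had a log2 fold change of 1.52 and was not called, and both called loci stayed called in every alternative setting.

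A list of markers of other tissues held 6 tested loci, of which 2 were called higher and 1, the muscle miRNA miR-133a-3p, lower. The shares over all 469 tested loci were 6.18% higher and 5.33% lower. The 2 higher loci were miR-375-3p and miR-184-3p. miR-375-3p, known from endocrine cells and epithelia, stood at 50.1, 49.1, 50.5 and 38.7 CPM in sham and 189, 179, 218 and 161 CPM at UUO-7. The groups did not overlap (log2 fold change 1.99 ± 0.25 SE, adjusted p = 3.54e-05 by edgeR). miR-184-3p, known from the cornea and lens, stood at 0.932, 1.26, 0.998 and 0.591 CPM in sham and 2.29, 423, 1.59 and 1.07 CPM at UUO-7, so that its mean came from UUO-7 replicate 3 alone. Without that library it was not called (log2 fold change 0.79, adjusted p = 0.35 by edgeR, with a range over the alternatives of 1.43e-83 to 0.376). The summed tubule marker list, which holds the epithelial miR-192, miR-194 and miR-200 loci and miR-204-5p, was 3755 to 4555 CPM in sham and 2141 to 2937 CPM at UUO-7. Without miR-204-5p the sum was 2076 to 3159 CPM in sham and 1619 to 2424 CPM at UUO-7, so that the groups overlapped. On the 63-library scale miR-192-5p went from 118265 to 41248 CPM in PT cells themselves. ECs held 2.57% of its PT mean in sham and 4.93% at UUO-7. Over the 12 loci of the list, the EC share of the PT mean rose in 5 and fell in 7. Of the 11 tested loci of the list, 0 were called higher and 1, miR-204-5p, was called lower by edgeR and by DESeq2, with 1 higher and 2 lower at an unadjusted p below 0.05. These counts stand beside 6.18% called higher and 5.33% called lower over all 469 tested loci. On the 63-library scale, PT cells went from 452 to 9703 CPM of miR-182-5p and from 83.7 to 1371 CPM of miR-375-3p, where ECs went from 164 to 721 and from 75.7 to 279 CPM. The means of both miRNAs also rose in the other types. Macs went from 112 to 412 and from 29.0 to 157 CPM, and PDGFR-β+ cells from 252 to 618 and from 115 to 183 CPM. The part of tubule RNA in the EC rises was not tested.

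miR-351-5p, miR-322-5p and miR-99a-5p were also called higher. miR-322-5p, the mouse counterpart of human miR-424, and miR-351-5p lie close together at chrX:53054306-53054327 and chrX:53053315-53053338. miR-351-5p stood at 1513, 1712, 1608 and 1469 CPM in sham and 2475, 2675, 2475 and 2988 CPM at UUO-7, with no overlap (log2 fold change 0.75 ± 0.14 SE, adjusted p = 0.00132 by edgeR). miR-322-5p rose from 1344 ± 255 to 2243 ± 287 CPM (SD, n = 4, log2 fold change 0.74, adjusted p = 0.0453 by edgeR). Its call was lost without sham replicate 1, 2 or 4, without UUO-7 replicate 2, 3 or 5, and with library totals as the scale. miR-351-5p has the seed of miR-125: the loci of miR-125b-5p had log2 fold changes of 0.58 and 0.58, just under the fold threshold, and the far more abundant miR-125a-5p had 0.14. miR-99a-5p, in an intron of Mir99ahg, went from 194 ± 54.7 to 334 ± 40.5 CPM (SD, n = 4, log2 fold change 0.79), with the call lost without UUO-7 replicate 5.

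Among the lower loci, miR-204-5p had the strongest evidence. It lies in an intron of Trpm3 at chr19:22750610-22750631 and is known from the retinal pigment epithelium and the kidney, where it was listed here as a tubule marker. It stood at 2156, 2108, 1395 and 1298 CPM in sham and 519, 521, 649.7 and 512 CPM at UUO-7. Sham replicates 1 and 2 were higher than replicates 3 and 4, and every sham library held at least 2 times the level of the median UUO-7 library. The means were 1739 ± 455 and 551 ± 66.2 CPM (SD, n = 4), with a log2 fold change of -1.66 ± 0.22 (SE) and an adjusted p of 8.52e-05 (edgeR). The other arm, miR-204-3p, had 60 reads over the sham libraries and 5 over the UUO-7 libraries, a ratio of 0.107 (exact 95% interval 0.0337 to 0.265). On the 63-library scale sham ECs held 2796 CPM of miR-204-5p and sham PT cells 112 CPM, so that in these libraries its level was higher in ECs than in the cell type it was listed for.

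2 of the 4 tested loci of the miR-29 family, known to repress collagen genes, were called lower, beside 5.33% over all 469 tested loci. The 4 loci share 1 seed and all had negative log2 fold changes. miR-29c-3p at chr1:195037600-195037621 stood at 181, 188, 205 and 181.95 CPM in sham and 82.3, 78.2, 131 and 116 CPM at UUO-7. The UUO-7 libraries varied more than the sham libraries but lay below all of them (log2 fold change -0.89 ± 0.20 SE, adjusted p = 0.00876 by edgeR), and the call was lost without UUO-7 replicate 2. The most abundant member, miR-29a-3p, had an adjusted p of 0.0228 (edgeR) but a log2 fold change of -0.50, under the fold threshold. miR-29b-3p on chromosome 6 was called at -0.65, and the call was lost when any library other than UUO-7 replicate 4 was left out.

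miR-378a-3p, in an intron of Ppargc1b and known from the control of energy metabolism, stood at 1087, 1288, 1549.9 and 1411 CPM in sham and 763, 683, 767 and 693 CPM at UUO-7. The groups were well apart (log2 fold change -0.88 ± 0.15 SE, adjusted p = 0.000594 by edgeR). miR-30c-5p on chromosome 1, of a family abundant in kidney and ECs, fell from 5933 ± 499.9 to 3675 ± 520.4 CPM (SD, n = 4, log2 fold change -0.69, adjusted p = 0.0447 by edgeR). This call was lost whichever of the 8 libraries was left out. Of the family, 11 of the 13 tested loci had negative values and 1 was called lower. Over all 469 tested loci, 249 had negative values and 5.33% were called lower. The muscle miRNA miR-133a-3p fell from 105 ± 26.0 to 31.6 ± 14.4 CPM (SD, n = 4, log2 fold change -1.73). miR-199b-3p, known from mesenchymal cells, fell from 55.7 ± 15.1 to 30.6 ± 4.80 CPM (SD, n = 4, log2 fold change -0.86), and miR-199a-3p on chromosome 1, whose mature sequence is the same, had a log2 fold change of -0.72 (adjusted p = 0.0752 by edgeR). The call of miR-199b-3p was also lost whichever of the 8 libraries was left out. The summed list of mural and fibroblast markers was 7141 to 14772 CPM in sham and 5803 to 11366 CPM at UUO-7.

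The imprinted Dlk1-Dio3 region on chromosome 12, whose miRNAs are made from the maternal chromosome, held 116 loci, of which 46 were tested and 8 were called lower. Over all 469 tested loci, 5.33% were called lower. 24 of the 116 had no count in the 8 libraries. Of the 46 tested loci 45 had negative log2 fold changes, with a median of -1.16, and 21 were lower without overlap between the groups (13.6% over all 469 loci). The tested loci hold 43 distinct sets of counts and the called loci 6. miR-434-3p at chr12:109594565-109594586 stood at 297, 478, 418 and 397 CPM in sham and 82.7, 118, 199.8 and 152 CPM at UUO-7. UUO-7 replicate 2 was lowest and replicate 4 highest, and all were below the sham libraries (log2 fold change -1.52 ± 0.44 SE, adjusted p = 0.0282 by edgeR).

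The other called loci of the region were miR-433-3p, miR-379-3p, miR-369-3p, miR-337-5p, whose counts equal those of miR-3544-3p, and miR-3071-5p, whose counts equal those of miR-136-3p. Their log2 fold changes were -1.20, -1.44, -1.75, -1.55 and -1.35. The most abundant locus of the region, miR-127-3p, stood at 1524, 2331, 1583 and 1937 CPM in sham and 552, 826, 1378 and 873 CPM at UUO-7. Its spread at UUO-7 was wide, and it was not called (log2 fold change -1.02 ± 0.41 SE, adjusted p = 0.0996 by edgeR). The number of lower calls in the region ranged from 0 to 20 over all alternative settings, while the median stayed between -1.39 and -0.87. Leaving out UUO-7 replicate 4 left 8 calls, and leaving out any other of the 8 libraries left 0 or 1. With the scaling factors and tested loci kept, 11 calls were left without UUO-7 replicate 4, 5 without sham replicate 1, 3 without sham replicate 3, 2 without sham replicate 4 and 0 or 1 without each of the others. On the 63-library scale, miR-127-3p stood in sham at 2951 CPM in ECs and 425 CPM in PDGFR-β+ cells, and at UUO-7 at 1370 and 5702 CPM.

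**Figure D3:**
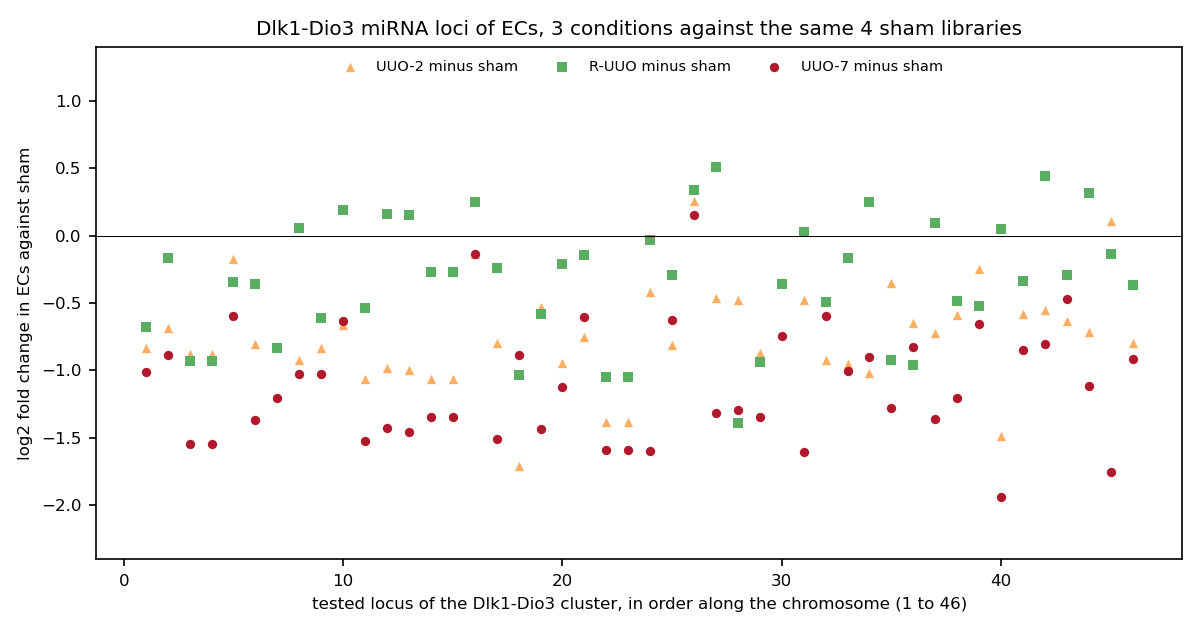
The 46 tested loci of the Dlk1-Dio3 region in their order along chromosome 12 (x axis), with the log2 fold change in ECs against the same 4 sham libraries (y axis) for UUO-2, UUO-7 and R-UUO. At UUO-7 45 of the 46 loci lie below 0, with a median of -1.16, against medians of -0.80 at UUO-2 and -0.29 after reversal.

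EC identity and vessel growth were covered by 2 lists. All 4 tested loci of the endothelial list had positive values, with a median log2 fold change of 0.10, and 0 were called by edgeR, with 1 at an unadjusted p below 0.05 and 1 called higher by DESeq2. Their sum was 87854 to 101111 CPM in sham and 95528 to 109746 CPM at UUO-7. These signs depended on the scaling. In the fit of 63 libraries 2 of the loci were positive and 2 negative, with a median of 0.001. With library totals as the scale, the mean sum was 103486 CPM in sham and 101599 CPM at UUO-7. Of 23 angiogenic loci, 2 were called higher (miR-322-5p and miR-132-3p, beside 6.18% called higher over all 469 loci) and 0 lower by edgeR or DESeq2, with 5 higher and 1 lower at an unadjusted p below 0.05. The most abundant EC locus, miR-10a-5p in the Hoxb region, had means of 192438 ± 23087 and 239133 ± 28259 CPM (SD, n = 4, adjusted p = 0.390 by edgeR). miR-10b-5p, in introns of Hoxd3 and Hoxd4, had 89662 and 132347 CPM, and although its groups did not overlap it was not called (adjusted p = 0.178 by edgeR).

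Of 14 loci known to respond to shear stress, 2 were called higher (beside 6.18% over all 469 loci), and both were miRNAs of the inflammatory list, miR-21a-5p and miR-155-5p. The hypoxia-induced miR-210-3p and miR-210-5p had log2 fold changes of 0.71 and 0.75 at means of 4.63 and 2.55 CPM in sham, and neither was called by edgeR, DESeq2 or the likelihood ratio test, with 1 at an unadjusted p below 0.05. None of the 16 loci of the miR-17-92 cluster and its paralogs, with a median of 0.26, was called by edgeR or DESeq2, with 2 higher and 0 lower at an unadjusted p below 0.05. The same held for the 12 let-7 loci, with a median of -0.01 and 1 locus in each direction at an unadjusted p below 0.05. Of 17 loci known from fibrosis and endothelial-to-mesenchymal transition, 2 were called higher (miR-21a-5p and miR-31-5p) and 3 lower (miR-29c-3p, miR-29b-3p on chromosome 6 and miR-433-3p). Over all 469 loci the shares were 6.18% higher and 5.33% lower. The 139 loci of the Sfmbt2 region had too few reads for a test. Both arms of 20 hairpins with a called arm were tested, and in all 20 both arms had the same sign. The 20 include the overlapping hairpins of miR-136 and miR-3071, whose called arms carry identical counts and are not independent.

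**Figure D4:**
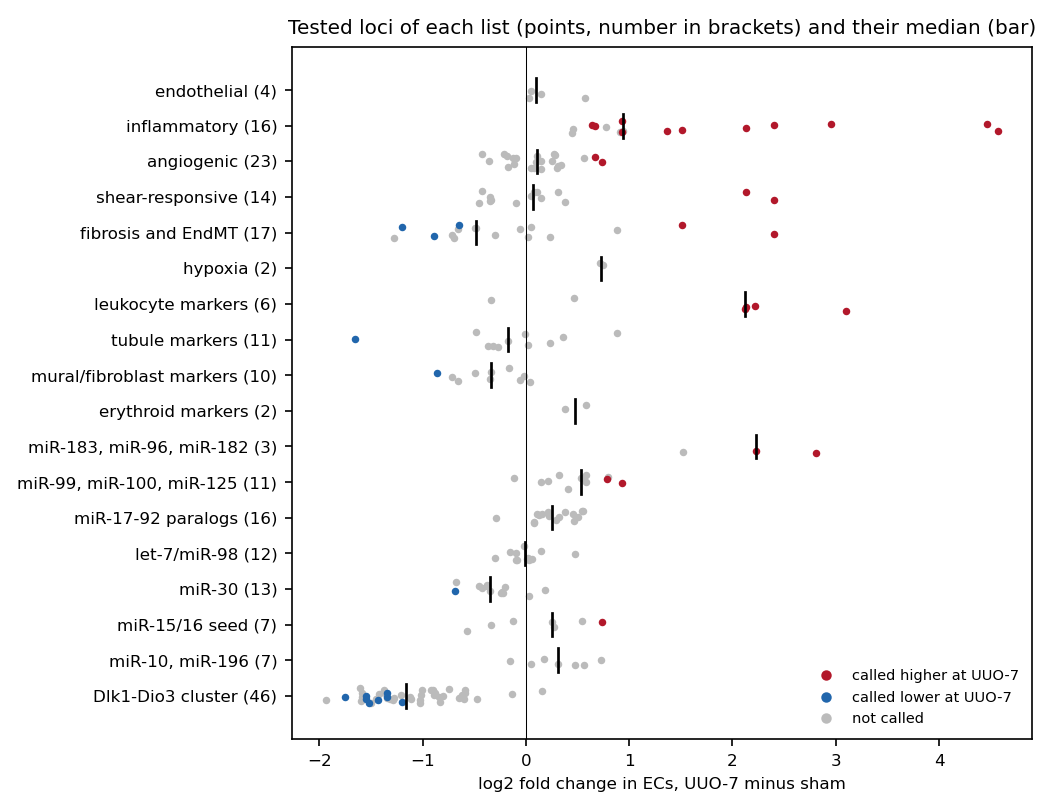
Each point is a tested locus of the list named on the y axis, with the number of tested loci in brackets, and the x axis is its log2 fold change in ECs, UUO-7 minus sham. The bar is the median of the list: it is 0.94 for the 16 inflammatory loci, 0.10 for the 4 endothelial loci and -1.16 for the 46 Dlk1-Dio3 loci.

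The EC libraries of the other conditions place these changes in time. The comparisons with UUO-2 and with R-UUO share the UUO-7 libraries with the comparison above. UUO-7 was tested against UUO-2 in the same fit, and 9 of 469 loci were called (1.92%), 7 higher (1.49%) and 2 lower (0.426%). The higher loci were miR-375-3p (log2 fold change 2.00), miR-183-5p (1.65), miR-182-5p (1.59), miR-146b-5p (0.94), miR-184-3p (7.35) and both loci of miR-181b-5p (0.80 and 0.81). The lower loci were both arms of miR-204, at -1.05 and -2.84. The count of lower loci was 7, 1, 0 and 1 without UUO-2 replicates 1 to 4 and 0, 0, 1 and 0 without UUO-7 replicates 2 to 5, and that of higher loci was 4 without UUO-2 replicate 2. miR-375-3p stood at 52.6, 39.5, 56.2 and 38.1 CPM at UUO-2, values that overlap the sham range, and miR-146b-5p at 106, 61.8, 47.7 and 66.8 CPM. miR-21a-5p already stood at 3434, 4559, 3676 and 5060.1 CPM at UUO-2 and did not pass the test between the times (log2 fold change 0.24, adjusted p = 0.636 by edgeR).

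After reversal, 5 of 469 loci differed from UUO-7 (1.07%), 4 higher (0.853%) and 1 lower (0.213%). They were miR-100-5p (1.41), miR-148a-3p (0.94), miR-145a-5p (1.67), miR-145a-3p (1.49) and miR-139-5p (-0.90), given with their log2 fold changes from UUO-7 to R-UUO. With 1 library left out, the higher calls numbered 7, 2, 8 and 1 without R-UUO replicates 1, 2, 4 and 5 and 2 without UUO-7 replicate 3, and the lower calls numbered 2, 4 and 0 without R-UUO replicates 1, 4 and 5 and 2, 12 and 11 without UUO-7 replicates 2, 4 and 5. miR-21a-5p stood at 7452, 4039, 4071 and 4718 CPM after reversal and miR-204-5p at 269.8, 566, 621 and 449.6 CPM. For neither did the R-UUO libraries reach the sham range. In miR-375-3p 3 of the 4 R-UUO libraries, at 91.0, 196.4, 86.0 and 86.5 CPM, fell between the sham and UUO-7 ranges, with no call (log2 fold change -0.70, adjusted p = 0.0894 by edgeR). R-UUO replicate 4 had the smallest scaling factor and the smallest scaled depth of the 16 libraries, with 3 counts at 1.13 CPM.

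**Figure D5:**
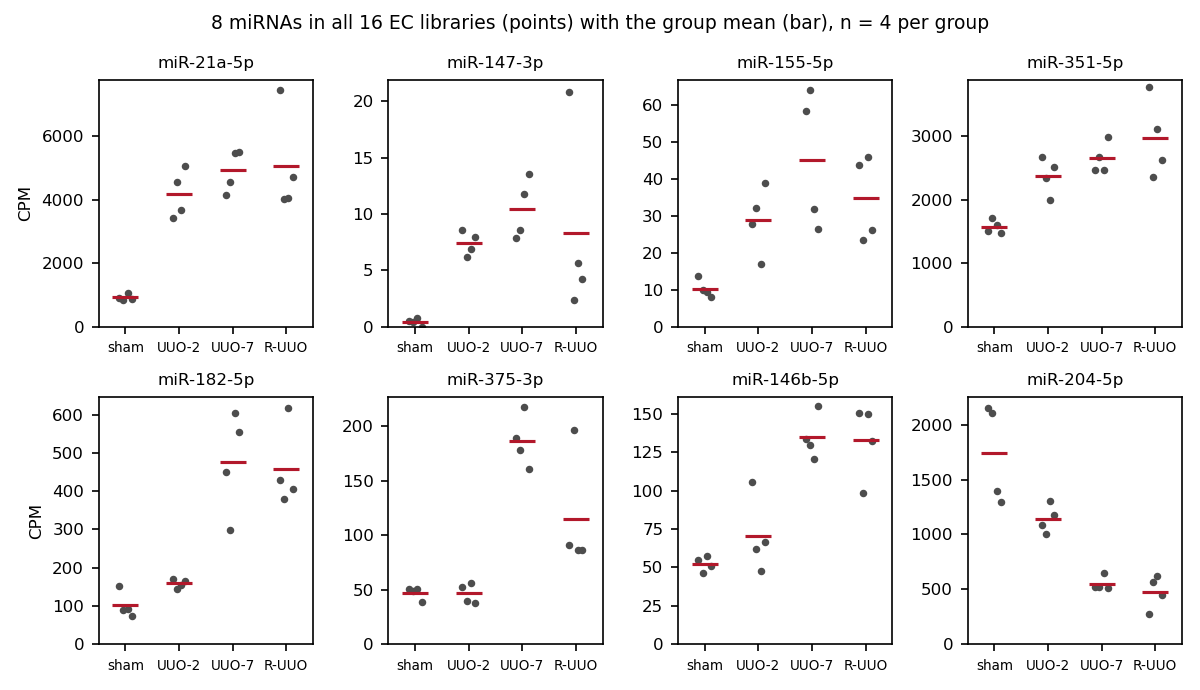
CPM (linear axis from 0) of 8 miRNAs in all 16 EC libraries as points, with the group mean as a bar, in the order sham, UUO-2, UUO-7, R-UUO (n = 4 each). miR-21a-5p is high from UUO-2 on, whereas miR-375-3p is near the sham level at UUO-2 and at 187 CPM on average at UUO-7.

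Whether these changes differed from those of the other cell types was tested as the change in ECs minus the mean change in Macs, PT cells and PDGFR-β+ cells, over all 63 libraries. Of 671 tested loci 79 differed (11.8%), 6 with a higher change in ECs (0.894%) and 73 with a lower one (10.9%). The median change of all loci differed between the types, at -0.10 in ECs, 0.10 in PT cells, 0.22 in Macs and 0.52 in PDGFR-β+ cells, and with each type centred on its own median the split was 36 higher and 50 lower. With the mouse as a block, 9 were higher and 76 lower. 3 of the named loci were higher and 14 lower in ECs than the mean of the other types in all 3 of these fits, which does not set ECs apart from each single type.

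The higher were miR-142a-5p, miR-99a-5p and miR-29c-3p. miR-142a-5p had log2 fold changes of 2.12 in ECs, 1.17 in PT cells, -1.07 in Macs and 2.25 in PDGFR-β+ cells (difference 1.33 ± 0.31 SE, adjusted p = 0.00166 by edgeR). Its change in ECs lay within the range of the other types, of which Macs had a negative value. miR-99a-5p had 0.68 in ECs, -0.23 in PT cells, -1.18 in Macs and a larger value of 1.39 in PDGFR-β+ cells. miR-29c-3p fell in ECs by less than the mean of the other types, with -0.98 in ECs against -2.78 in PDGFR-β+ cells, -2.21 in Macs and -1.28 in PT cells (difference 1.11 ± 0.24 SE, adjusted p = 0.000766 by edgeR). miR-184-3p passed in the unblocked fit with a difference of 5.33 and did not pass with the mouse as a block, at 1.65.

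Among the 14 lower, miR-204-5p changed by -1.76 in ECs, 3.502 in PT cells, 0.37 in Macs and -1.43 in PDGFR-β+ cells (difference -2.58 ± 0.38 SE, adjusted p = 1.08e-06 by edgeR). Its level fell in ECs from 2796 to 825 CPM and went from 112 to 1268 CPM in PT cells. miR-146b-5p rose in ECs by 1.26, less than the mean of 5.20 in PDGFR-β+ cells, 1.61 in Macs and a nearly equal 1.24 in PT cells (difference -1.42 ± 0.22 SE). miR-132-3p was already at 64.1 CPM in sham ECs, against 4.78 in Macs and 8.22 in PT cells, and rose by 0.55 against 3.47 and 2.27 there and 2.00 in PDGFR-β+ cells (difference -2.03 ± 0.30 SE). miR-378a-3p fell by 0.98 on the log2 scale in ECs and changed by -0.15 in PT cells, 0.60 in Macs and -0.38 in PDGFR-β+ cells (difference -1.002 ± 0.17 SE). The others were miR-125b-1-3p, miR-342-3p, miR-150-5p, miR-199a-3p, miR-199b-3p and miR-127-3p, miR-411-5p, miR-433-3p, miR-3071-5p and miR-434-3p of the Dlk1-Dio3 region. miR-21a-5p was not among the loci that differed, with 2.31 in ECs against 4.99 in PDGFR-β+ cells, 0.36 in Macs and 1.85 in PT cells (difference -0.09 ± 0.30 SE, adjusted p = 0.985 by edgeR).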

How the data were processed

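Small RNA reads of sorted kidney cells were trimmed by the authors with Trim Galore 0.4.1 and Cutadapt 1.1 and aligned with ShortStack to GRCm38 and miRBase, and raw counts per miRNA locus were deposited, without normalization or pooling. The strand counted and the placing of multi-mapping reads are not given in the sources used here. No molecular identifiers are named, so that intervals and floors cover counting error only. Libraries were grouped by their labels. The 16 EC libraries were fitted together in R 4.3.3 with edgeR 4.0.16 (filterByExpr, TMM, quasi-likelihood test, condition only), and calls required a fold change above 1.5 and an FDR below 0.05. Changes were compared with the other cell types in a fit of all 63 libraries. DESeq2 1.42.0, other scalings, filters and samples were alternatives. In a test on simulated data of the EC fit of 469 loci, 70.0% of rises and 57.1% of falls of 1 on the log2 scale were recovered, and 93.9% and 85.7% of those of 2. Loci were named by rule: the 10 largest and 10 smallest log2 fold changes among called loci without overlap, the 5 most abundant called loci in each direction, called list members, and the 2 most abundant uncalled members of each list. miR-126a, miR-139-5p, the seed relatives of called loci and the loci called between other conditions were added after their values were seen. The members and lists were chosen with earlier results of these data known. Cell types of 1 mouse share a replicate number within a condition, and over 23 same-mouse pairs the correlation of deviations from the group means ranged from -0.14 to 0.27 (median 0.05). No library was a copy of another (chi-square per degree of freedom of 49.3 to 333 between libraries of a group). Each library is 1 mouse. Annotation was GENCODE M21. The library that the authors removed, leaving 3 PDGFR-β+ libraries at UUO-7, was not analysed here.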

Additional observations from a re-analysis of the deposited data

Results flagged for a closer look

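In 12 of 134 groups of 4 libraries of the 67 named loci, 1 library lay far from the other 3, where chance gives about 1 in 20 groups. The gap to the nearest library is given as a share of the group's range. At UUO-7 it was 0.997 for miR-184-3p (replicate 3 high), 0.840 for miR-21a-3p, 0.936 for miR-204-5p and 0.907 for miR-133a-3p. In sham it was 1 for miR-155-3p, where 1 library held the only read, 0.840 for miR-183-5p, 0.876 for miR-375-3p, 0.865 for miR-31-5p, 0.894 for miR-200b-3p, 0.850 for miR-30d-5p, 0.833 for miR-199a-3p and 0.893 for miR-1668. The causes were not tested.

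For 18 named loci the change from sham to UUO-7 in ECs differed from the mean change in the other 3 cell types. The criteria were an adjusted p below 0.05 (edgeR's quasi-likelihood test of the difference) and a fold of the difference above 1.5. The log2 differences were 5.33 for miR-184-3p, 1.33 for miR-142a-5p, 0.69 for miR-99a-5p and 1.11 for miR-29c-3p. They were -1.42 for miR-146b-5p, -1.64 for miR-125b-1-3p, -2.03 for miR-132-3p, -1.09 for miR-342-3p, -1.83 for miR-150-5p, -2.26 for miR-199a-3p, -2.28 for miR-199b-3p, -1.002 for miR-378a-3p and -2.58 for miR-204-5p. In the Dlk1-Dio3 region they were -4.13 for miR-127-3p, -3.41 for miR-411-5p, -6.08 for miR-433-3p, -4.70 for miR-3071-5p and -3.82 for miR-434-3p.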

How the results depend on the processing

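Of 38 called loci that were named, 20 stayed called in every setting tried, 18 were lost in at least 1 and 0 changed sign. With identical loci counted once, UUO-7 against sham gave 45 higher and 16 lower calls, and without the low-count filter 46 higher. Lower calls were 41 by edgeR's likelihood ratio test, 38 with library totals as the scale, 14 with loci of 1 mature name summed and 39 with the 2 groups alone. Without 1 library, higher calls were 24 to 42 and lower calls 7 to 18. With the scaling factors and tested loci kept, an alternative chosen after seeing the data, higher calls were 23 to 33, and lower calls were 21, 8, 12 and 13 without sham replicates 1 to 4 and 11, 12, 24 and 13 without UUO-7 replicates 2 to 5. The 37 higher and 34 lower calls of DESeq2 and the 33 and 20 with its size factors were within 1.5 times the counts reported.

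UUO-7 against UUO-2 had 7 lower calls by DESeq2 and without the filter, 5 by the likelihood ratio test, 1 with the 2 groups alone, 1 after thinning to the smallest library and 0 with a replicate block. Without 1 library there were 4 to 8 higher and 0 to 7 lower calls. R-UUO against UUO-7 had 17 higher and 21 lower calls by DESeq2, 23 and 18 by the likelihood ratio test and 19 and 20 without the filter. It had 2 and 0 with the 2 groups alone, 6 lower with DESeq2's size factors, 20 lower with library totals and 0 lower with a replicate block. Without 1 library there were 1 to 8 higher and 0 to 12 lower calls. The difference from the other cell types had 15 higher loci by DESeq2, 10 by the likelihood ratio test, 13 without the filter and 36 with each type centred on its median change, which was chosen after seeing the data. Without 1 library there were 5 to 9 higher and 63 to 72 lower. The causes of these shifts were not tested.

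Equal replicate numbers of sham and UUO-7 mice mark different mice, and the deviations of same-numbered ECs correlated at -0.08, -0.27 and -0.15. With the replicate number as a block, 28 loci were higher and 26 lower. Depth limits the rarest loci: 3 counts stand at 0.272 to 0.583 CPM, so that loci under 1 CPM rest on few reads.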
